A study of Homo sapiens with 96 samples.

Results

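The replication-dependent histone H4 genes examined here are the 10 genes named HIST1H4A, HIST1H4B, HIST1H4C, HIST1H4D, HIST1H4E, HIST1H4F, HIST1H4H, HIST1H4I, HIST1H4J and HIST1H4L, taken by gene name from the 10 deposited expression tables. Of these 10 listed genes, 8 had a row in at least 1 table, against 23611 gene names over all tables. HIST1H4F and HIST1H4L had no row in any table used here, and HIST1H4J had none in the 2 nuclear tables. The cells were hTERT-RPE1, a widely used cell line derived from human retinal pigment epithelium and immortalised by telomerase, shared by all groups below. Nascent RNA and its input RNA were profiled in whole cells and in nuclei, in asynchronous cells and in 5 windows named T0-2, T2-4, T4-6, T6-8 and T8-10 of cells synchronised with 400 µM mimosine for 22 h, with 2 libraries per group. Synchronised cells were also profiled at points S0, S2, S4 and S6 after transfection of LNA GapMeRs (130 to 150 pmol), which are antisense oligonucleotides leading RNase H to their target, against the long noncoding RNAs LINC00704, LUCAT1 or MIAT, or of a control GapMeR, with 2 libraries per group. Asynchronous cells received the same 4 kinds of GapMeR, with 2 control and 3 knockdown libraries each and no mimosine in their description. The sources used here do not give the unit of the window and point names. Since no label ties the libraries of a group to separate cultures, every p-value refers to the variation among these libraries, which may be technical.

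Histone H4 pairs with H3 at the centre of the nucleosome, and dividing cells must make it in step with new DNA. The human genome meets that need with many intronless H4 genes, most of them in the histone gene cluster on chromosome 6, which encode the same protein. Their transcription is switched on at the start of S phase by NPAT, a cyclin E-CDK2 substrate that gathers at histone gene loci, and by HINFP, a zinc finger factor of H4 promoters. Their mRNAs end in a stem-loop bound by SLBP in place of a poly(A) tail, and they are degraded when DNA synthesis stops.

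The promoters are shown because the members share a short, fixed layout in front of the start, and because HIST1H4I, the member that behaved differently below, can be compared with the rest. Each line gives the 75 bases before the annotated start, 5′ to 3′ on the gene's own strand, from RefSeq (GRCh38.p14). Capitals mark GGTCCG, the core of the element that HINFP is known to bind, and TATAA. RefSeq promoter entries were matched for 8 of the 10 genes, and HIST1H4A and HIST1H4C are named only.
HIST1H4B: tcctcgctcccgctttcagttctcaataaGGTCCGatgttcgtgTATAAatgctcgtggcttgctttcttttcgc
HIST1H4D: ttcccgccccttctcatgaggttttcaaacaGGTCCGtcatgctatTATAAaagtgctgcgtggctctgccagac
HIST1H4E: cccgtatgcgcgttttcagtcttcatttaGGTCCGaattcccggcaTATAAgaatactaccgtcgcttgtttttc
HIST1H4F: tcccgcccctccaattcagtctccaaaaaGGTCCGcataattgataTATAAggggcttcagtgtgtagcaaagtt
HIST1H4H: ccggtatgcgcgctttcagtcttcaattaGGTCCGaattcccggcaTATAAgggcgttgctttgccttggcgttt
HIST1H4I: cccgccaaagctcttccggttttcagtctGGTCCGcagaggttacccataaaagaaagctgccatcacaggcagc
HIST1H4J: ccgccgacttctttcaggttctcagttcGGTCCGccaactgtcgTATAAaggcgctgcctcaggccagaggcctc
HIST1H4L: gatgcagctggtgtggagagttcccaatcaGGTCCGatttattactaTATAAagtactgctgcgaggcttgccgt

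GGTCCG stood in all 8 of these windows, once in each, and its first base lay between 44 bases (HIST1H4D) and 47 bases (HIST1H4J) before the start. Searched on both strands, the same 6 letters occurred in 3.06% of the 35116 RefSeq promoter windows of that length (1074 windows). TATAA followed in 7 of the 8, with 9 to 11 bases between the motifs, against 7.50% of all windows on either strand. HIST1H4I was the member without TATAA in this stretch. Its window reads cataa where that of HIST1H4E has TATAA, 29 bases before the start, so it differs there in the first letter. These matches describe the letters in the windows and not binding. The windows of HIST1H4J and of HIST1H4K, an H4 gene outside the list, were the same at 74 of 75 bases, and those of HIST1H4E and HIST1H4H at 58 of 75.

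All 10 genes lie on chromosome 6 in 3 stretches of the histone cluster (GRCh38.p14). HIST1H4A (chr6:26021649-26022050), HIST1H4B (chr6:26026896-26027283), HIST1H4C (chr6:26103933-26104337), HIST1H4D (chr6:26188710-26189112), HIST1H4E (chr6:26204610-26205021), HIST1H4F (chr6:26240393-26240793) and HIST1H4H (chr6:26285126-26285534) lie close together. HIST1H4I (chr6:27139282-27139678) stands alone, and HIST1H4J (chr6:27824092-27824480) and HIST1H4L (chr6:27873148-27873534) lie furthest along. The values are RPKM, read counts scaled to gene length and to a library size. The deposited lengths were 312 bases for HIST1H4A, HIST1H4D and HIST1H4E, 373 to 438 bases for HIST1H4B, HIST1H4C, HIST1H4H and HIST1H4J, and 1294 bases for HIST1H4I. RefSeq gives HIST1H4I 397 bases, so the deposited value of that gene counts reads over a model about 3 times longer than the annotated one. Near-identical copies can trade reads, so single members are uncertain and the summed RPKM of the family is given beside them.

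From the steps of the RPKM values, which are whole reads for at least 99.9% of the values checked in every library (tolerance 0.05 of a read), the libraries held 6390000 to 50470000 counted reads. Read counts of the libraries differ between tables, with 6390000 to 28570000 in the nascent and input tables, 9110000 to 23360000 over S0 to S6 and 26390000 to 50470000 in asynchronous knockdown cells. The smallest read counts behind a member were 0 for HIST1H4J and 5 for HIST1H4I, so these genes carry the largest counting error. Of 9 genes of differentiated pigment epithelium, 2 or 3 passed the filter for testing in each table (MITF, OTX2 and in 4 tables SERPINF1), while RPE65 did not. All 6 genes listed for the cultured line (such as KRT8, KRT18 and VIM) passed it in 8 tables and 5 in the nuclear tables. Of 6 markers of other cell types none passed it except HBB in the 2 nascent tables, where the summed level of the 6 was 0.552 to 73.0 RPKM (whole-cell) and 0.335 to 4.09 RPKM (nuclear). The 2 LINC00704 knockdown libraries called S2 library a and S4 library a stood apart in H4 and HIST1H2A levels and are treated with their results below.

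A few members carried most of the H4 RNA measured. In the 12 whole-cell nascent libraries the sum ranged from 1323 to 4572 RPKM. It ranged from 1303 to 11390 RPKM in whole-cell input, from 174 to 804 RPKM in nuclear nascent and from 291 to 1464 RPKM in nuclear input RNA. These 4 tables were scaled separately, so their levels are set side by side without a test. HIST1H4E held 18.1% to 44.3% of the sum over all libraries, HIST1H4C 9.41% to 37.3%, HIST1H4B 6.67% to 32.0% and HIST1H4H 8.15% to 28.5%. HIST1H4A held 1.78% to 12.3% and HIST1H4D 3.09% to 24.2%. HIST1H4I and HIST1H4J stayed at most at 4.66% and 1.5%.

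Which member was highest in the windows of the input tables went with the replicate number. In both input tables HIST1H4C was highest in all 5 windows of replicate 1 and HIST1H4E in all 5 windows of replicate 2. The asynchronous whole-cell input libraries did not follow this, with HIST1H4E highest in both replicates at 34.9% and 34.3% of the sum. In each nascent table HIST1H4E was highest in 4 of the 5 windows of replicate 1 and in all 5 of replicate 2. In whole-cell input RNA the share of HIST1H4E was 18.1% to 20.4% in the windows of replicate 1 and 37.4% to 41.2% in those of replicate 2. The share of HIST1H4D was 10.8% to 19.4% in the former and 3.09% to 6.38% in the latter. The ranges do not overlap, and the cause was not tested. In the windows of the input tables the order of HIST1H4C and HIST1H4E therefore turned with the replicate number. In nuclear input RNA HIST1H4C held 23.1% to 29.9% of the sum, above the 11.1% to 19.5% of HIST1H4B and the 11.4% to 19.8% of HIST1H4H over all 12 libraries. The ranges of HIST1H4B and HIST1H4H overlap each other.

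Nuclear input RNA gave the most regular course of the 4 kinds of RNA. The summed H4 level was 609 and 688 RPKM in asynchronous nuclei. It was 296 and 291 RPKM at T0-2, 558 and 712 at T2-4, 1464 and 1326 at T4-6, 1012 and 1211 at T6-8, and 995 and 1017 at T8-10. In both replicates the lowest window was T0-2, below the asynchronous libraries, and the highest was T4-6. In bulk RNA, more cells in S phase and more H4 RNA per cell cannot be told apart.

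**Figure D1:**
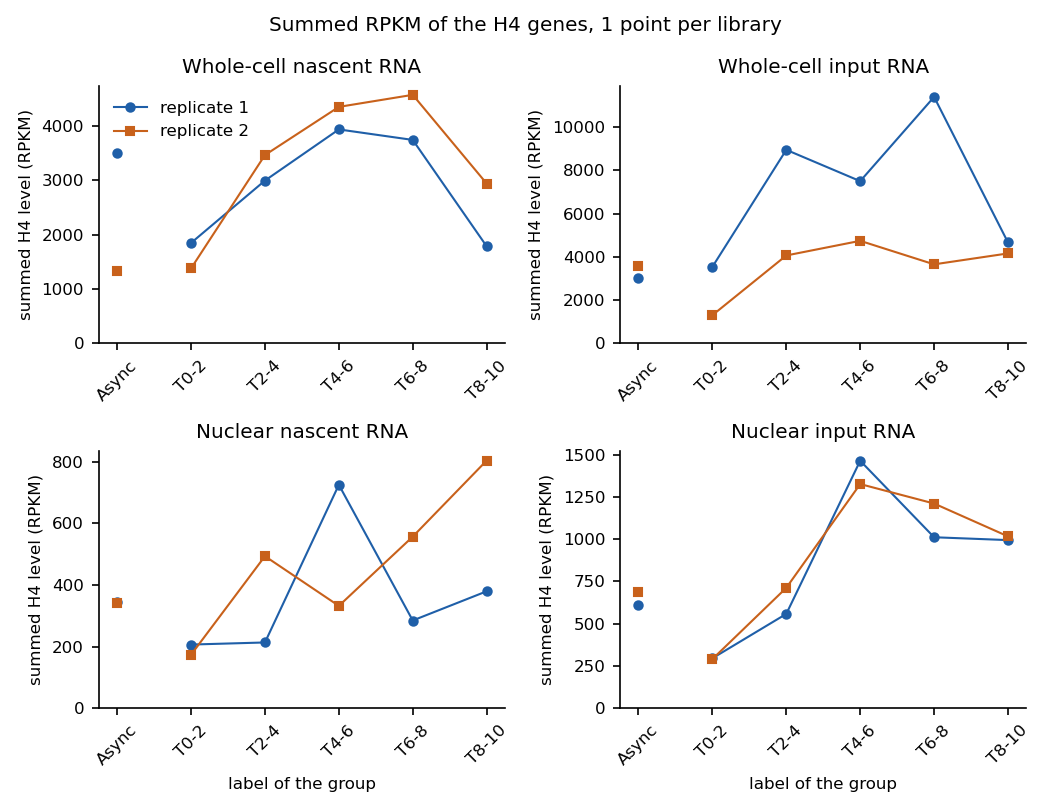
Summed RPKM of the H4 genes (y axis, linear from 0) in asynchronous cells and in the 5 windows (x axis) for each kind of RNA, with 1 point per library and a line joining the windows of a replicate. Both nuclear input replicates run from about 290 RPKM at T0-2 to a highest value at T4-6, while the replicates of the other 3 kinds of RNA lie further apart.

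HIST1H4C had 80.9 and 82.1 RPKM at T0-2, 151 and 172 at T2-4, 339 and 340 at T4-6, 294 and 301 at T6-8, and 298 and 255 at T8-10 in nuclear input RNA, against 167 and 186 in asynchronous nuclei. Its 2 replicates lay close together in every window. HIST1H4B had 40.8 and 33.8 RPKM at T0-2, 109 and 112 at T2-4, 271 and 186 at T4-6, 124 and 159 at T6-8, and 110 and 123 at T8-10. Both genes were higher in each later window than at T0-2 with no overlap. At T8-10 26.0% of all genes were higher in this way, and for the other windows that share was not computed.

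The means of the 5 windows differed for 2 of the 7 members tested, HIST1H4C (adjusted p = 0.0338) and HIST1H4B (adjusted p = 0.0487), by limma's moderated F-test with Benjamini-Hochberg adjustment over 9633 genes. Of all those genes, 0.218% passed. T8-10 exceeded T0-2 by 1.75 ± 0.22 on the log2 scale for HIST1H4C (SE, 2 libraries each, limma adjusted p = 0.0154) and by 1.64 ± 0.27 for HIST1H4B (limma adjusted p = 0.048), 2 of 7 members where 0.415% of all genes passed and 0.270% were higher. With a pseudocount of 0.25 RPKM these differences are slightly understated for low genes.

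The libraries of this table were paired by their replicate number, since the same-numbered libraries deviated together in all 15 pairs of groups. With the replicate number as a block, 6 of the 7 members differed among windows, as did 13.1% of all genes, and the same 6 were higher at T8-10, as were 15.5%. They were HIST1H4A (1.19 ± 0.24, limma adjusted p = 0.011), HIST1H4B (1.64 ± 0.23), HIST1H4C (1.75 ± 0.18), HIST1H4D (2.32 ± 0.23), HIST1H4E (1.94 ± 0.21) and HIST1H4H (1.56 ± 0.27). All 6 members were also higher in both T8-10 libraries than in both T0-2 libraries, as were 26.0% of all genes. Leaving out any single library ended the calls among windows, and left at most 1 for T8-10 against T0-2. Without the block, no member passed in either test with no filter on low values or with quantile normalization, which also took the T8-10 difference of the H4 sum from 1.78 to 1.13.

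HIST1H4D, HIST1H4E, HIST1H4H and HIST1H4A followed the same course at other levels. HIST1H4E had 57.8 and 101 RPKM at T0-2 and 277 and 449 at T4-6, with replicate 2 higher in all 5 windows. HIST1H4D had 35.0 and 18.2 RPKM at T0-2 and 247 and 143 at T4-6, with replicate 1 higher in all 5. HIST1H4A, the lowest of the 6, had 19.0 and 14.9 RPKM at T0-2 and 82.4 and 49.8 at T4-6. Each of the 6 had its lowest window at T0-2 and its highest mean at T4-6.

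**Figure D2:**
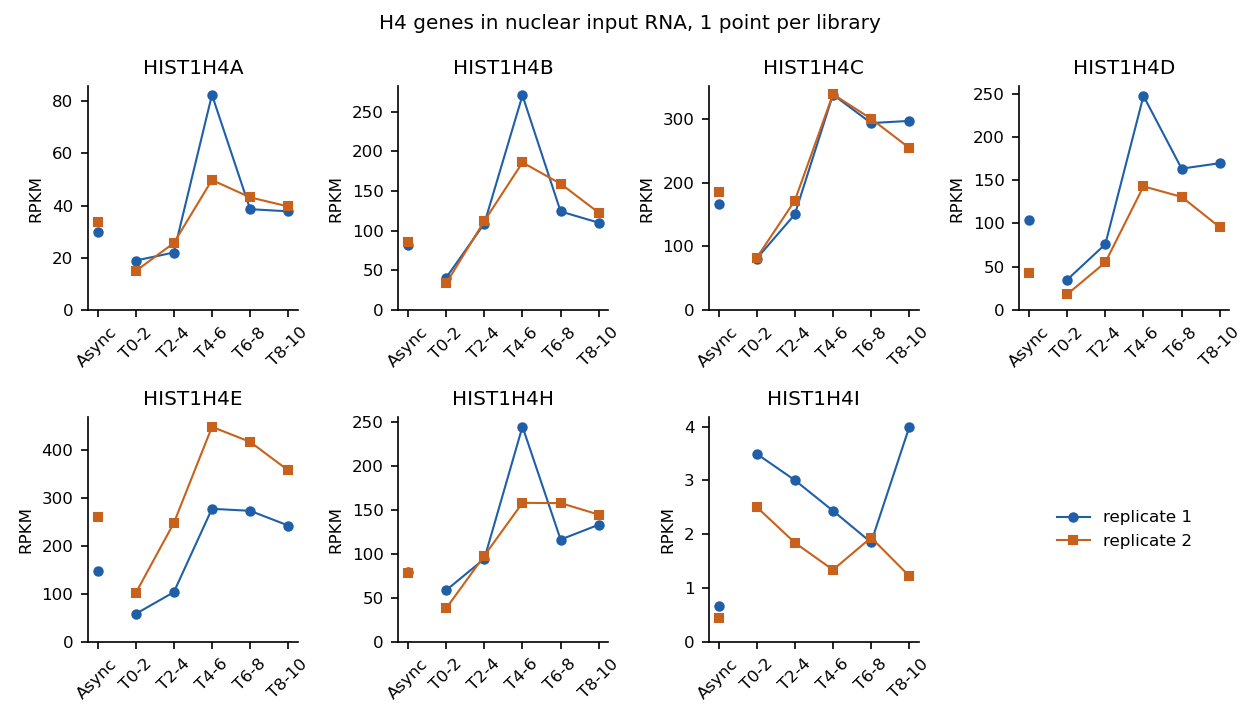
RPKM of each H4 gene measured in nuclear input RNA (y axes, linear from 0, each with its own range) in asynchronous nuclei and in the 5 windows (x axis), with 1 point per library. In 6 genes both replicates are lowest at T0-2 and highest at T4-6, while HIST1H4I is lowest in the asynchronous libraries.

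Averaged over the 5 windows, the 6 abundant members were close to asynchronous nuclei, with differences of 0.06 to 0.49 on the log2 scale and limma adjusted p-values of 0.32 to 0.939. HIST1H4I was the 1 member of 7 called (4.57% of all genes were called, 1.96% higher and 2.61% lower). The summed H4 level was higher in the windows by 0.27 on the log2 scale, with a pooled SD between replicates of 0.14.

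In nuclear nascent RNA the H4 sum was 346 and 342 RPKM in asynchronous nuclei, 207 and 174 at T0-2, 213 and 493 at T2-4, 725 and 332 at T4-6, 285 and 557 at T6-8, and 379 and 804 at T8-10. Both T0-2 libraries were the lowest of their replicate, and the replicates then peaked in different windows, T4-6 for replicate 1 and T8-10 for replicate 2. HIST1H4E went from 40.5 and 66.0 RPKM at T0-2 to 137 and 356 at T8-10 in the 2 replicates, a difference of 2.09 ± 0.63 on the log2 scale that did not pass (limma adjusted p = 0.138). None of 7 members passed for T8-10 against T0-2 (0.358% of all genes did, 0.112% higher and 0.245% lower), and 3 had an unadjusted p under 0.05. HIST1H4A, HIST1H4B, HIST1H4C, HIST1H4E and HIST1H4H were nevertheless higher in both T8-10 libraries than in both T0-2 libraries, 5 of 7 against 30.5% of all genes. No member passed among windows (0.0204% of genes; 1 member with an unadjusted p under 0.05) or against asynchronous nuclei (4.50% of genes, 1.95% higher and 2.54% lower; 1 member).

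In whole-cell nascent RNA the H4 sum was 3493 and 1323 RPKM in asynchronous cells, 1847 and 1379 at T0-2, 2994 and 3464 at T2-4, 3935 and 4350 at T4-6, 3742 and 4572 at T6-8, and 1786 and 2940 at T8-10. T2-4, T4-6 and T6-8 were above T0-2 and T8-10 in both replicates. The asynchronous library of replicate 2 lay below all its windows, and that of replicate 1 within their range. Within replicate 1 the windows were lower than the asynchronous library by -0.37 on the log2 scale, and within replicate 2 they were higher by 1.22. No member passed in the 3 tests of this table (0.406% of genes against asynchronous cells, 0 among windows and 0 for T8-10 against T0-2), and 1, 4 and 0 of 8 members had an unadjusted p under 0.05 (limma). HIST1H4A, HIST1H4D, HIST1H4E and HIST1H4J were higher in both T8-10 than in both T0-2 libraries, 4 of 8 against 24.2% of all genes.

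In whole-cell input RNA the H4 sum was 3039 and 3564 RPKM in asynchronous cells, 3536 and 1303 at T0-2, 8944 and 4063 at T2-4, 7497 and 4739 at T4-6, 11390 and 3652 at T6-8, and 4663 and 4157 at T8-10. Replicate 1 was higher in every window. Against its asynchronous library, replicate 1 was higher by 1.12 on the log2 scale, and replicate 2 differed by -0.12. No member of 8 passed in any of the 3 tests (0.0305% of genes against asynchronous cells, 0 for the others), and 0, 1 and 1 members had an unadjusted p under 0.05 (limma). HIST1H4E and HIST1H4H were higher in both T8-10 than in both T0-2 libraries, 2 of 8 against 12.9% of all genes. HIST1H4E had 719 and 517 RPKM at T0-2 and 843 and 1647 at T8-10, a difference of 0.95 ± 0.40.

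HIST1H4I, which encodes the same H4 protein from a locus apart from the other members, ran apart from the other members in the nuclear tables. Over the 12 libraries of a table its Pearson correlation with the summed level of the other members (log2 scale) was -0.31 in nuclear nascent and -0.17 in nuclear input RNA, where that of the other 6 members lay between 0.58 and 0.98. In the whole-cell tables it was 0.38 (nascent) and 0.56 (input). Over the 16 libraries of S0 to S6 it was 0.65 in the LINC00704 table and 0.79 in the MIAT table, above the 0.56 and 0.69 of HIST1H4J, and 0.09 in the LUCAT1 table. These are descriptions over libraries that share their groups. In nuclear nascent RNA HIST1H4I had 1.28 and 0.75 RPKM in asynchronous nuclei, 9.64 and 2.58 at T0-2, and 1.76 and 2.02 at T8-10. Of the 5 windows T0-2 was its highest in both replicates, and it was the lowest for the H4 sum. The other 6 members were all lowest at T0-2 in replicate 2, but in replicate 1 HIST1H4C and HIST1H4D were lowest at T2-4 and HIST1H4A at T6-8. For HIST1H4I the T8-10 libraries lay below both T0-2 libraries (17.8% of all genes).

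In nuclear input RNA HIST1H4I had 0.67 and 0.43 RPKM in asynchronous nuclei and 1.22 to 3.99 RPKM in the 10 window libraries. The share of all genes set apart in this way was not computed. The windows exceeded asynchronous nuclei by 1.65 ± 0.37 on the log2 scale (limma adjusted p = 0.0457), and by 1.65 ± 0.22 with the replicate block (limma adjusted p = 0.000962, 16.4% of all genes higher). These values rest on 5 to 65 reads per library. The call was lost without any 1 of 10 of the 12 libraries, and with a pseudocount of 1, median scaling or quantile normalization. In whole-cell nascent RNA it had 1.79 and 0.81 RPKM in asynchronous cells and 2.94 to 10.4 RPKM in the windows, a difference of 1.89 ± 0.47 that did not pass (limma adjusted p = 0.119).

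**Figure D3:**
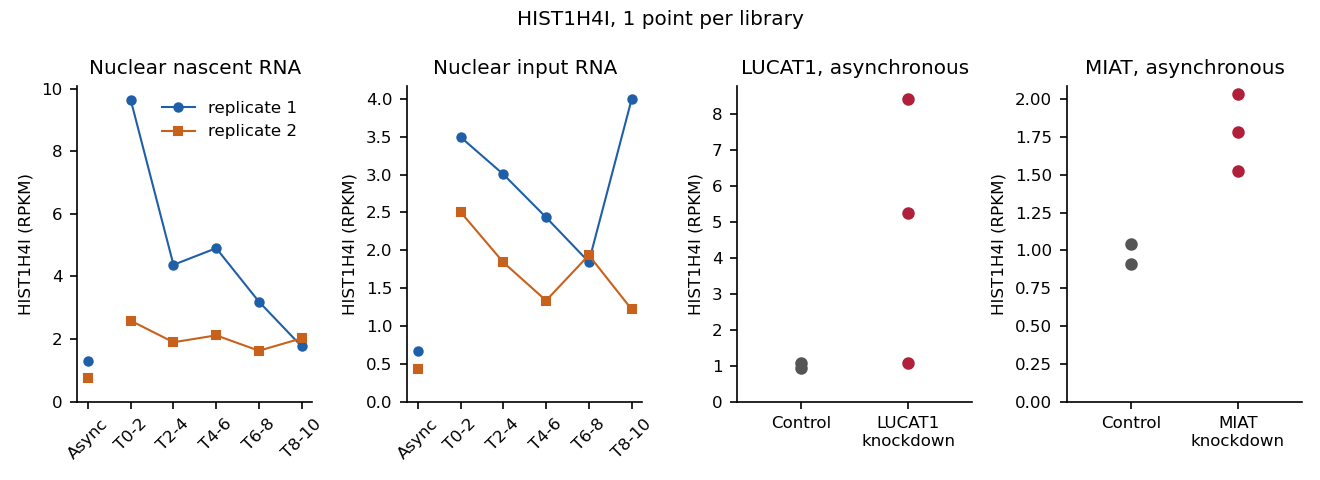
RPKM of HIST1H4I (y axes, linear from 0, each with its own range), 1 point per library, in nuclear nascent and nuclear input RNA by window and in asynchronous cells with LUCAT1 or MIAT knocked down beside their controls. The asynchronous nuclear libraries are the lowest of their panels, and 3 of 3 MIAT knockdown libraries lie above both controls.

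In cells given the control GapMeR the H4 sum was higher at each successive point, from 795 and 1238 RPKM at S0 to 2231 and 1949 at S2, 4107 and 3833 at S4, and 7235 and 5331 at S6. The ranges of the 4 points do not overlap. HIST1H4B differed most, from 73.8 and 118 RPKM at S0 to 343 and 300 at S2, 864 and 822 at S4, and 1243 and 1169 at S6. HIST1H4H went from 72.6 and 146 RPKM at S0 to 1039 and 757 at S6, and HIST1H4D from 37.0 and 64.8 to 357 and 551. HIST1H4A differed least, from 97.5 and 122 RPKM to 227 and 183. All 8 members were higher in both S6 than in both S0 libraries, as were 25.7% of all genes.

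In the fit of the LINC00704 table no member passed for S6 against S0 (0.0741% of genes did), although 7 of 8 had an unadjusted p under 0.05 (limma). The differences were 3.69 ± 0.80 for HIST1H4B (limma adjusted p = 0.0807), 3.17 ± 0.71 for HIST1H4D and 3.10 ± 0.70 for HIST1H4H (limma adjusted p = 0.097 for both). That fit shares its estimate of the spread with the LINC00704 knockdown libraries. Without the 2 that stood apart, 5 members passed (0.706% of all genes higher), namely HIST1H4B, HIST1H4C, HIST1H4D, HIST1H4E and HIST1H4H. Those 2 libraries were left out because of their H4 levels, which narrows the spread of these same genes and leaves each difference as it was, with the SE of HIST1H4B at 0.35 in place of 0.80, so that count is no independent evidence. The same control libraries gave 5 calls in the LUCAT1 table (0.527% of all genes higher), 4 in the MIAT table (0.525%) and 4 when fitted alone (0.657%). HIST1H4A, HIST1H4I and HIST1H4J passed in none of these, with differences of 0.90, 1.31 and 1.68. For a difference among all 4 points no member passed in the LINC00704 table (0 of all genes; 6 members with an unadjusted p under 0.05), and 3 passed without those 2 libraries (0.513% of all genes), with the same limit.

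Each GapMeR's target was lower in its knockdown. LINC00704, listed under its other name MANCR, had 0.55 to 1.61 RPKM in the 8 knockdown libraries of S0 to S6 against 1.89 to 4.04 in the controls. LUCAT1 had 0.13 to 0.38 RPKM against 0.44 to 0.99, and MIAT 0.07 to 0.22 against 0.24 to 0.32. In asynchronous cells LINC00704 had 0.48 to 0.79 RPKM against 1.76 to 1.94, LUCAT1 0.12 to 0.31 against 0.47 to 0.49, and MIAT 0.06 to 0.15 against 0.34 to 0.38. MIAT was also lower in the asynchronous LUCAT1 knockdown libraries, at 0.09 to 0.26 RPKM against 0.36 to 0.39. LUCAT1 was higher in asynchronous cells with LINC00704 knocked down (0.78 to 1.07 RPKM) and with MIAT knocked down (0.67 to 0.83), against 0.45 to 0.48 in both controls. The other target levels overlapped their controls in the asynchronous cells given a GapMeR against another target. Over S0 to S6 with LINC00704 knocked down, LUCAT1 was above both controls at S2, S4 and S6, as were 23.9%, 21.2% and 26.7% of all genes. At S4 it had 1.29 and 1.12 RPKM against 0.44 and 0.68. MIAT was above both controls there at S0 and S2. With LUCAT1 knocked down MIAT was below both at S0, and LINC00704 at S6. The remaining levels of this kind overlapped their controls. The LUCAT1 value of 0.31 belongs to replicate 1 of the asynchronous LUCAT1 knockdown, which also differed from the other 2 in H4 levels, below.

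With LINC00704 knocked down the H4 sum was 615 and 929 RPKM at S0, 6428 and 1906 at S2, 867 and 3077 at S4, and 2764 and 4376 at S6. The library labelled S2 a had an H4 level in the range of the S6 controls, and the library labelled S4 a one in the range of the S0 controls. HIST1H2A genes summed to 2279 RPKM in the former against 812 in its partner, and to 305 RPKM in the latter against 1465. HIST1H3 genes did not set S2 library a apart, with 1086 RPKM against 1108 in its partner and 711 and 1083 in the S2 controls, while S4 library a had 383 against 802. Their target level was low, 0.55 and 0.86 RPKM. CCNE1, a cyclin of the G1/S transition, had 0.57 RPKM in S4 library a and 1.87 in its partner. The labels were kept, and no cause was tested. No member passed over the 4 points (0.0212% of all genes did), with 2 of 8 at an unadjusted p under 0.05 (limma). The median of the members was -0.43 on the log2 scale against 0.05 for all genes. The summed level differed by -0.44 with a pooled SD of 0.70, and 0 members passed also without those 2 libraries. The interaction of knockdown and point was not called for any member in the 3 tables, with 0 members at an unadjusted p under 0.05 in each (0 of all genes passed, limma).

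**Figure D4:**
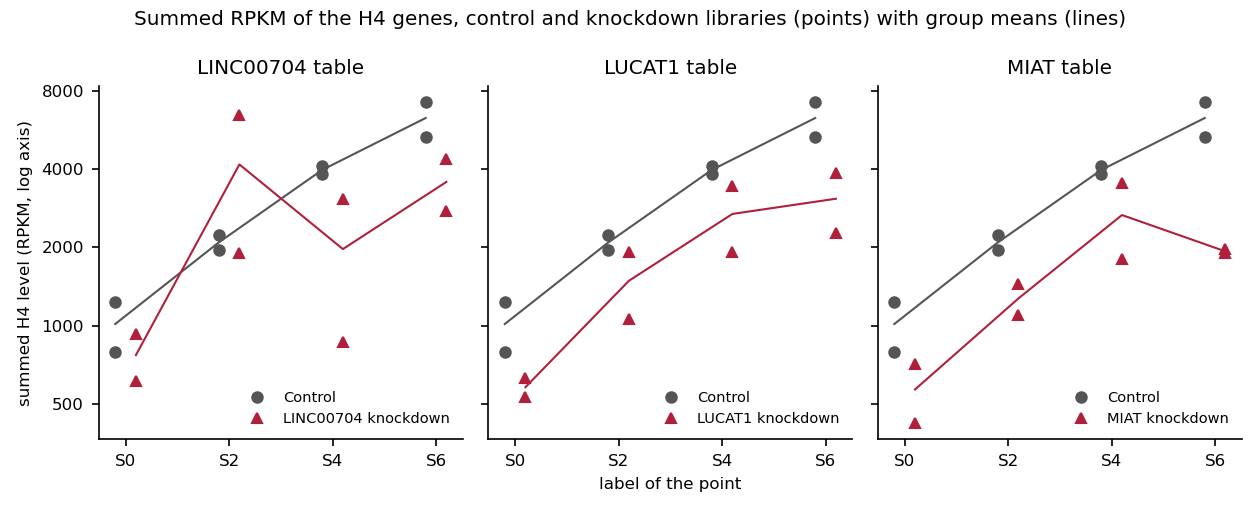
Summed RPKM of the H4 genes (y axis, log scale) at S0, S2, S4 and S6 (x axis) in control and knockdown libraries, 1 point per library, with lines through the group means. The control libraries are the same in the 3 panels and are higher at each successive point, the MIAT and LUCAT1 knockdown libraries lie at or below them, and 2 LINC00704 knockdown libraries lie far from their partners at S2 and S4.

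With LUCAT1 knocked down the H4 sum was 532 and 630 RPKM at S0, 1065 and 1914 at S2, 1921 and 3459 at S4, and 3873 and 2282 at S6, below both controls at every point. Over the 4 points 4 of 8 members fell, where 27.2% of all genes passed and 8.12% fell. HIST1H4J fell by 1.75 ± 0.29 on the log2 scale (limma adjusted p = 0.00254, 8 libraries each), HIST1H4A by 1.13 ± 0.18 (limma adjusted p = 0.00222), HIST1H4E by 1.07 ± 0.24 (limma adjusted p = 0.00996) and HIST1H4B by 0.54 ± 0.17 (limma adjusted p = 0.0348). HIST1H4A had 39.6 and 53.0 RPKM at S0, 47.2 and 86.4 at S2, 81.5 and 106 at S4, and 97.5 and 89.9 at S6. The controls had 97.5 and 122, 138 and 134, 251 and 154, and 227 and 183 RPKM, so that HIST1H4A was lower in the knockdown without overlap at each point. HIST1H4J showed the same, and these 2 of 8 members stand against 3.21% of all genes. The values of HIST1H4J rest on only 2 to 11 reads in the knockdown libraries and 8 to 47 in the controls. HIST1H4C (-0.62 ± 0.23, limma adjusted p = 0.0634) and HIST1H4H (-0.68 ± 0.28, limma adjusted p = 0.0819) did not pass, nor did HIST1H4D (-0.21 ± 0.26) or HIST1H4I (0.65 ± 0.37). HIST1H4I had 8.72 and 11.3 RPKM in library a of S0 and S2, and 1.61 and 3.46 in library b.

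With MIAT knocked down the H4 sum was 423 and 716 RPKM at S0, 1105 and 1444 at S2, 1806 and 3522 at S4, and 1966 and 1897 at S6. These values lay below both controls at each point, and the gap was widest at S6. Over the 4 points 6 of 8 members fell, where 7.63% of all genes passed, 2.79% lower and 4.84% higher. HIST1H4J fell by 2.37 ± 0.31 (limma adjusted p = 0.000935), HIST1H4E by 1.09 ± 0.20 (0.00693), HIST1H4C by 1.06 ± 0.30 (0.0491), HIST1H4H by 1.00 ± 0.23 (0.0211), HIST1H4A by 0.99 ± 0.20 (0.00972) and HIST1H4B by 0.78 ± 0.19 (0.0272), the values in brackets being limma adjusted p-values. HIST1H4D (-0.79 ± 0.29) and HIST1H4I (-0.59 ± 0.24) did not pass. HIST1H4E had 133 and 207 RPKM at S0, 300 and 355 at S2, 545 and 709 at S4, and 739 and 645 at S6. Its controls had 272 and 377, 750 and 570, 1737 and 951, and 2555 and 1212 RPKM, with no overlap at any point. HIST1H4A, HIST1H4B and HIST1H4J also did not overlap at any point, 4 of 8 members against 1.78% of all genes. HIST1H4J had 0 to 1.54 RPKM against 1.65 to 9.44, which rest on only 0 to 8 reads against 8 to 47. Quantile normalization left 2 calls, and 3 members were called without S0 or S2 replicate 2 or S6 replicate 1 of the controls, or without library a of the knockdown at S0 or S2.

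In asynchronous cells the MIAT knockdown had the most members called, 8, in a table where 43.7% of all genes passed. The H4 sum was 1534, 1844 and 1762 RPKM in the knockdown libraries and 2907 and 3673 in the controls. Of the 8 members 7 were lower and HIST1H4I was higher, where 31.1% of all genes were lower and 12.6% higher. HIST1H4A fell by 1.42 ± 0.15 (limma adjusted p = 0.00103) from 219 and 273 RPKM to 83.0, 88.8 and 104. HIST1H4B fell by 1.06 ± 0.13 (limma adjusted p = 0.00151) from 606 and 758 RPKM to 307, 332 and 335. HIST1H4E fell by 0.85 ± 0.13, HIST1H4C by 0.86 ± 0.17, HIST1H4H by 0.93 ± 0.12, HIST1H4D by 0.84 ± 0.22 and HIST1H4J by 0.61 ± 0.17. HIST1H4I rose by 0.72 ± 0.12 (limma adjusted p = 0.00456), from 0.91 and 1.04 RPKM to 1.52, 1.78 and 2.03. All 7 falling members lay below both controls without overlap, as did 44.8% of all genes. The median of the members was -0.85 against -0.12 for all genes.

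With LUCAT1 knocked down in asynchronous cells the H4 sum was 1695, 1088 and 1051 RPKM against 3014 and 3805. Again 7 members were lower and HIST1H4I higher in all 3 knockdown libraries than in both controls, where 31.5% of all genes were lower and 14.6% higher without overlap. HIST1H4A had 123, 45.5 and 58.5 RPKM against 227 and 283, and HIST1H4D 143, 153 and 110 against 357 and 523. No member passed over all 5 libraries (0.209% of genes did), with limma adjusted p-values of 0.0677 for HIST1H4D (-1.69 ± 0.25) to 0.245 for HIST1H4I (1.67 ± 0.74), and 7 of 8 had an unadjusted p under 0.05. Without knockdown replicate 1 all 8 passed, with HIST1H4A at -2.29 ± 0.18 (limma adjusted p = 0.000464) and HIST1H4I at 2.46 ± 0.23 (limma adjusted p = 0.00065), and so did 4563 of 9432 genes. That library was the knockdown library nearest the controls in the H4 sum. Leaving it out enlarged the HIST1H4A difference from -1.87 ± 0.42 and narrowed its spread, so that count is no independent evidence. Leaving out each library in turn gave 0 to 8 calls. HIST1H4I had 1.08 RPKM in replicate 1 (38 reads), next to the controls at 0.94 and 1.08 (47 and 34 reads), and 8.42 and 5.27 in the other 2 libraries. In the authors' deposited table all 8 members had an FDR under 0.05 for this comparison, as had 44.6% of its 16052 genes, with log2 fold changes of -1.75 for HIST1H4A and 2.18 for HIST1H4I.

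With LINC00704 knocked down in asynchronous cells the differences were smaller. The H4 sum was 2392, 2339 and 2421 RPKM against 2923 and 3664. HIST1H4A, HIST1H4B, HIST1H4C, HIST1H4E and HIST1H4H lay below both controls in all 3 libraries, 5 of 8 members where 25.2% of all genes did. No member passed (0.0557% of genes did), and 4 had an unadjusted p under 0.05 (limma). HIST1H4A differed by -0.71 ± 0.23 and HIST1H4B by -0.52 ± 0.14, with limma adjusted p-values of 0.284 and 0.235. In the authors' deposited table HIST1H4A (log2 fold change -0.68, FDR 0.0315) and HIST1H4I (0.87, FDR 0.0133) were the 2 members of 8 with an FDR under 0.05, as had 7.41% of its genes.

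**Figure D5:**
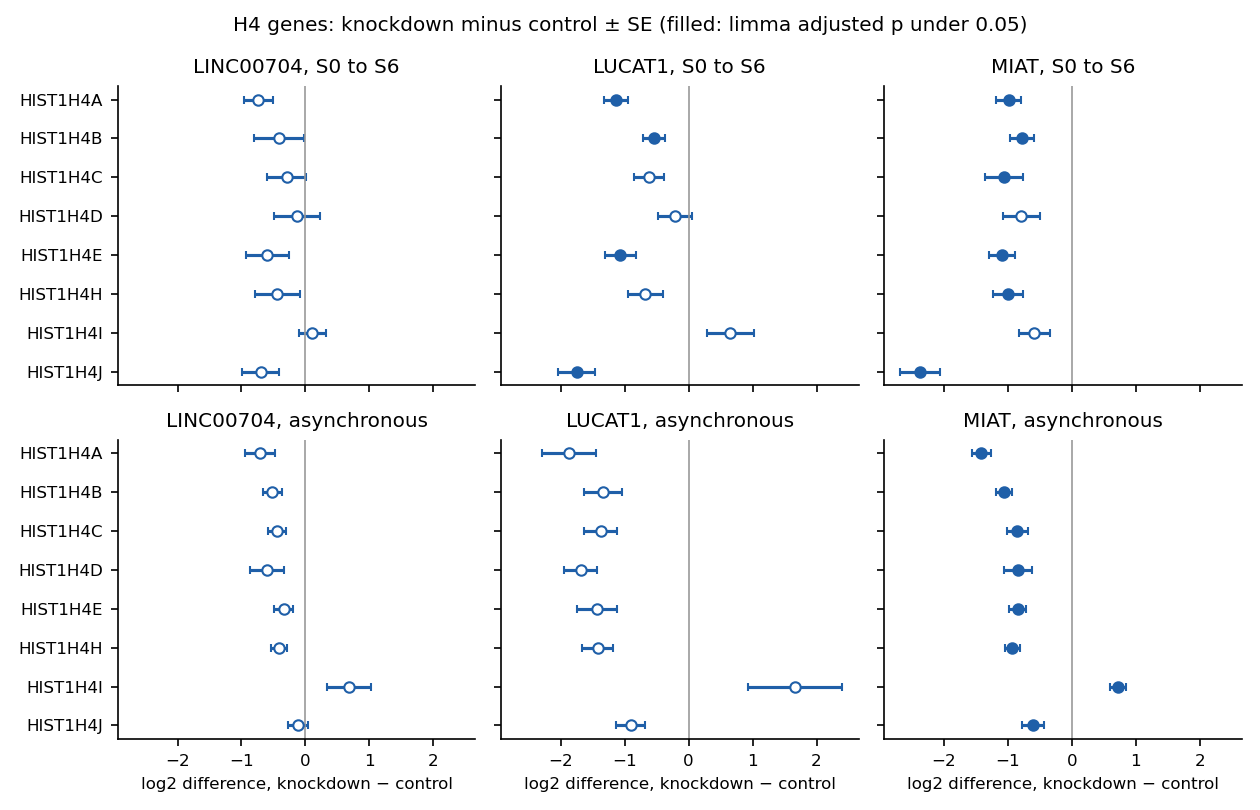
Difference of knockdown and control for each H4 gene (x axis, log2 scale, bars 1 SE) over S0 to S6 (upper row) and in asynchronous cells (lower row). Filled points are the 4 (LUCAT1, S0 to S6), 6 (MIAT, S0 to S6) and 8 (MIAT, asynchronous) members with a limma adjusted p under 0.05, and HIST1H4I lies on the other side of 0 from the rest in the 3 asynchronous panels.

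HIST1H4J differed most in level between the sets of tables. It had 12.5 to 30.6 RPKM in the asynchronous knockdown tables and 0 to 12.8 in the others. HIST1H4K, the gene with the near-identical promoter, had 17.7 to 46.8 RPKM in the former and 0 to 14.6 in the latter. The tables were scaled separately, and the sources used here do not say how reads shared by these copies were counted. Among the H4 genes outside the list, HIST1H4K passed for control S6 against S0 (4.24 ± 0.67, limma adjusted p = 0.0479). In that comparison 0.0741% of all genes passed. HIST1H4K had 0 RPKM in both S0 control libraries of the LINC00704 table, and 2.95 and 6.72 RPKM at S6. The size of its difference therefore depends on the pseudocount and is not a measured fold change. HIST1H4K (-0.77 ± 0.14), HIST2H4A (-0.95 ± 0.09) and HIST4H4 (-1.17 ± 0.13) all fell in asynchronous cells with MIAT knocked down, 3 of 3 tested, where 31.1% of all genes fell.

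The other histone families of the cluster had median differences of the same sign as the H4 genes in the 4 comparisons below. In nuclear input RNA from T0-2 to T8-10 the median difference was 1.64 for H4 members, 1.54 for 7 HIST1H3 genes (2 rose), 2.06 for 8 HIST1H2A genes (3 rose), 1.86 for 12 HIST1H2B genes (4 rose) and 2.28 for 5 genes of the linker histone H1 (4 rose), against 0.12 for all genes. Of all genes 0.270% rose in that comparison. From control S0 to S6 the medians were 2.42 for H4, 2.4 for HIST1H3, 3.43 for HIST1H2A, 3.0 for HIST1H2B and 2.63 for HIST1H1, against 0.05 for all genes. With LUCAT1 knocked down over S0 to S6 they were -0.65 for H4, -0.38 for HIST1H3, -0.25 for HIST1H2A, -0.24 for HIST1H2B and -0.41 for HIST1H1, and 0, 0, 0 and 2 genes of the latter 4 families fell, where 8.12% of all genes fell. With MIAT knocked down over S0 to S6 the medians were -0.99 for H4, -0.54 for HIST1H3 (1 fell), -0.86 for HIST1H2A (2 fell), -0.92 for HIST1H2B (3 fell) and -0.55 for HIST1H1 (0 fell), where 2.79% of all genes fell. Whether the families differed from each other was not tested.

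The genes with the pattern most like the H4 sum were histone genes in all 4 fraction tables, 10 of the 10 most correlated in each over 12 libraries. HIST1H3H led in whole-cell nascent (Pearson r = 0.959) and whole-cell input RNA (0.989), HIST1H2BD in nuclear nascent (0.930) and HIST1H2AB in nuclear input RNA (0.978). These correlations share libraries and depth and are given as descriptions.

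Genes that act on H4 genes and their mRNAs were followed as a list of 14. None of the 13 tested in nuclear input RNA passed for T8-10 against T0-2, and 4 had an unadjusted p under 0.05 (limma). SLBP, the stem-loop binding protein, had 2.95 and 3.35 RPKM at T0-2 and 2.06 and 1.97 at T8-10, and NPAT 1.93 and 1.74 against 1.12 and 1.10. Both were lower at T8-10 without overlap, as were 12.3% of all genes, and how many of the 13 were so was not counted. With LUCAT1 knocked down over S0 to S6, 6 of 14 rose, where 19.0% of all genes rose and none of the 14 fell. They were SLBP (0.77 ± 0.17, limma adjusted p = 0.00865), NPAT (0.51 ± 0.16), HINFP (0.48 ± 0.15), CPSF2 and CPSF3 of the complex that cleaves histone pre-mRNA (0.61 ± 0.15 and 0.56 ± 0.13), and UPF1, a helicase of histone mRNA decay (0.61 ± 0.19). None of 12 passed with MIAT knocked down over S0 to S6, where 0 had an unadjusted p under 0.05, and none of 12 with LINC00704, where 3 had (limma). With MIAT knocked down in asynchronous cells SLBP (-0.35 ± 0.12), SYMPK, CSTF2 and UPF1 fell and XRN1 rose, 5 of 12, a share near the 43.7% of all genes that passed there.

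Among the H3-H4 chaperones and assembly factors, ASF1B, which hands H3-H4 dimers to the assembly machinery, fell over S0 to S6 with LUCAT1 (-0.66 ± 0.14, limma adjusted p = 0.00834) and with MIAT knocked down (-0.77 ± 0.18, limma adjusted p = 0.0208), as the 1 of 9 tested that passed in each. With LUCAT1 knocked down 27.2% of all genes passed and 8.12% fell, so 1 of 9 is near the share of all genes. With MIAT knocked down 7.63% passed and 2.79% fell. ASF1B had 3.76 to 6.90 RPKM with LUCAT1 knocked down and 2.60 to 6.65 with MIAT knocked down, against 5.57 to 10.2 in the controls. In asynchronous cells with MIAT knocked down 5 of 9 fell, where 31.1% of all genes did, namely NASP (-0.57 ± 0.13), ASF1B (-0.75 ± 0.17), CHAF1A (-0.90 ± 0.12), MCM2 (-1.12 ± 0.16) and TONSL (-0.95 ± 0.09). Of 6 genes followed as a check of the cell cycle, CCNE1 and CCNE2 rose with LUCAT1 knocked down over S0 to S6, where 19.0% of all genes rose. CCNE1 fell with MIAT knocked down over S0 to S6, where 2.79% of all genes fell. None of the 6 passed in the asynchronous tables, where 1, 3 and 1 had an unadjusted p under 0.05 for LINC00704, LUCAT1 and MIAT (limma). The part of a change in the share of S-phase cells in the H4 levels was not tested.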

How the data were processed

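Per the labels, total RNA was sequenced. The authors deposited RPKM per gene and library, and the submitters' processing notes name STAR 2.5.3, featureCounts 1.6.1, edgeR and hg38 without roles. The 3 asynchronous tables also hold the authors' log2 fold changes and FDR values, which are adjusted p-values, per the file headers. Here log2(RPKM + 0.25) was fitted with limma 3.58.1 (R 4.3.3), table by table since each was scaled separately. A gene entered a fit with 0.5 RPKM or more in 2 or more libraries. Moderated tests used a mean-variance trend, with Benjamini-Hochberg adjustment over all tested genes and a threshold of 0.05. No count test was run, since RPKM are not counts. Control points were tested in the LINC00704 table, and the knockdowns share their control libraries. The fits were tested on simulated data. All members with a row were named, and the genes of most like pattern were the 10 with the highest correlation to the H4 sum. The members and gene lists were chosen with earlier results of these data known. Replicate numbers were taken as pairing the nuclear input libraries, from the data: deviations from group means correlated at 0.627 to 0.861 in 15 of 15 pairs of groups. Knockdown columns of S0 to S6 carry numbers other than their titles, so they were used as libraries a and b of their group. Of 96 samples, 91 had columns, and 5 chromatin samples were not analysed here. Alternatives were other pseudocounts, filters and scalings, a replicate block and leaving out each library.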

Additional observations from a re-analysis of the deposited data

How the results depend on the processing

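No difference reversed among the called members. In nuclear input RNA, 1 member was called for the windows against asynchronous nuclei, and 0 with a pseudocount of 1, quantile normalization or median scaling. Of the 2 called among windows, 1 was left with a pseudocount of 0.1 or median scaling, 0 with no filter or quantile normalization, and 6 were called with the replicate block. Of the 2 called for T8-10 against T0-2, 1 was left with a pseudocount of 1 or 0.1 or with median scaling, 0 with no filter or quantile normalization, and 6 were called with the replicate block. The block also gave 1 call where there was 0 for the windows in whole-cell nascent and in nuclear nascent RNA, 1 for LINC00704 and 4 for LUCAT1 in asynchronous cells, and these numbers share no stated pairing. For a difference among control points, 0 members became 5 with the replicate block on the control libraries alone, 2 with those libraries alone, 3 without the 2 LINC00704 libraries that stood apart, 1 in the LUCAT1 table and 2 in the MIAT table. For control S6 against S0, 0 became 6, 4, 5, 5 and 4 in the same order. For the knockdowns over S0 to S6 no paired analysis was possible because the knockdown columns of S0 to S6 carry numbers that do not match their titles. Quantile normalization, which by construction gives every library the same distribution, left 2 of 6 calls for MIAT over S0 to S6. It moved the log2 difference of the H4 sum to -0.14 for windows in whole-cell nascent RNA, a change of sign, and in nuclear input RNA to 0.073 for windows and 1.13 for T8-10 against T0-2. The sum went to 1.31 for control S6 against S0, to -0.31 for LUCAT1 and -0.53 for MIAT over S0 to S6, and to -0.089, -0.43 and -0.31 for LINC00704, LUCAT1 and MIAT in asynchronous cells. Leaving out 1 library at a time gave 0 to 1 calls for nuclear input windows, 0 to 0 among windows and 0 to 1 for T8-10 against T0-2. It gave 0 to 1 calls among control points, 0 to 3 for control S6 against S0 (3 without S4 library a or b of LINC00704), 0 to 1 for LINC00704 (1 without S0 library b), 3 to 6 for LUCAT1 and 3 to 8 for MIAT over S0 to S6. In asynchronous cells it gave 0 to 8 calls for LUCAT1 (8 without knockdown replicate 1) and 6 to 8 for MIAT. Where it left 1 library in a group, that library was assumed to vary like the others. Leaving out 1 library moved the H4 sum between -0.27 and 1.13 for windows in whole-cell nascent RNA. Counting error limits HIST1H4I and HIST1H4J most, and in nuclear input RNA the other members had at least 69 reads in every library.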
